A study of Rattus norvegicus with 4 samples.

Results

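The small RNAs of rat aortic vascular smooth muscle cells after 1 h of angiotensin II (Ang II) were set against those of untreated cells. Both libraries were taken by their source label, and they are 2 of the 4 libraries of the study, whose other two are Ang II for 3 h and 24 h. The cells came from Sprague-Dawley rats, were grown in M199 medium with 10% fetal bovine serum, and in every group were kept without serum for 48 h. The treated cells then received 100 nM Ang II for 1 h, and the control received none. The labels give no time for the control and do not say whether the libraries came from separate cultures, so an effect of Ang II and one of the time passed cannot be told apart. With 1 library a side no test of the conditions was possible, and none is given. Ranges in parentheses are exact 95% intervals. They reflect the counting error of reads alone, and not variation between cultures or libraries. Reads copied by PCR are not separate molecules, so the intervals can be too narrow even for the counting of molecules. The 3 h and 24 h values are given beside some results for orientation, and their ratios share the control library with the 1 h ratios.

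Ang II is a peptide hormone that constricts vessels through the AT1 receptor and also drives growth programs in smooth muscle cells. A microRNA (miRNA) is cut from a hairpin that is folded from a longer transcript. The nuclear enzyme Drosha frees the hairpin, Dicer then removes the loop, and an Argonaute protein keeps one of both arms, called 5p and 3p, more often than the other. Bases 2 to 8 of the kept arm form the seed, which pairs with target messenger RNAs. The exact 5' end sets the seed, while the 3' end is often trimmed, extended or tailed with added bases. In smooth muscle, miR-143 and miR-145 are known as miRNAs of the contractile state, and miR-21, miR-221 and miR-222 as miRNAs of dividing cells.

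A miRNA arm was called higher or lower if its reads scaled to 1000000 deposited reads (RPM) differed at least 1.5-fold on the scale of log2((RPM + 1)/(RPM + 1)), with at least 100 reads in the higher library. The 10 arms that passed are shown first because the results on arms, ends and partners turn on them. Each is the RefSeq mature sequence, 5' to 3', with the seed in capitals. The 5 higher arms come first and the 5 lower arms after them.
miR-129-5p: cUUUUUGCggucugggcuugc
miR-21-3p: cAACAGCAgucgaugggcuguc
miR-221-5p: aCCUGGCAuacaauguagauuuc
miR-31a-3p: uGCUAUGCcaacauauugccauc
miR-27a-5p: aGGGCUUAgcugcuugugagca
miR-338-5p: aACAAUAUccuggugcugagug
miR-181a-1-3p: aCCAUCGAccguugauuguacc
miR-34c-3p: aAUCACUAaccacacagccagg
miR-421-3p: aUCAACAGacauuaauuggg
miR-3559-3p: aUGUAGUAcugagucugucgug
The 10 seeds all differ. In the GRCr8 assembly, miR-129-5p has 2 loci, of which the Mir129-2 arm lies at chr3:100657448-100657468 on the minus strand. miR-21-3p lies at chr10:71902615-71902636 (minus), miR-221-5p at chrX:6023206-6023228 (plus), miR-31a-3p at chr5:108714869-108714891 (minus) and miR-27a-5p at chr19:40859655-40859676 (minus). miR-338-5p lies at chr10:105796381-105796402 (minus), miR-181a-1-3p at chr13:52037121-52037142 (plus), miR-34c-3p at chr8:60306101-60306122 (minus), miR-421-3p at chrX:72657352-72657371 (minus) and miR-3559-3p at chrX:73660153-73660174 (minus). All are arms of annotated miRNA genes.

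Reads with a sequence numbered 14395539 in the control library and 13119417 at 1 h. Tags that match an arm made up 72.5% of the control reads and 76.5% at 1 h. Tags that match no listed hairpin over their first 18 nt are called unnamed here and made up 27.02% and 23.08%. A miRNA missing from the listed hairpins is unnamed too, and miR-30b and miR-30d, for example, had no listed arm. Unnamed tags can also share a shorter stretch with a hairpin: 2666 of the 3097 unnamed tags with 100 reads share no 16 bases with one. The control library also carried more reads with an unread base, 50636 against 17869, of which 29936 and 159 had it at base 24. Of 406 arms with reads, 182 had at least 100 in one of both libraries. Their median log2 ratio was -0.11, with 66 arms above the control and 116 below it.

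The higher arms were led by miR-129-5p and by the less read arms of the miR-21 and miR-221 hairpins. Of the 182 arms, 5 were called higher (2.75%) and 5 lower (2.75%). miR-129-5p, a miRNA best known from brain, had 482 control reads (33.5 RPM) and 1189 at 1 h (90.6 RPM), a ratio of 2.71 (2.43 to 3.02). It had 1313 reads at 3 h and 1007 at 24 h, so all treated libraries lay above the control. miR-21-3p, the arm of Mir21 that is seldom kept, had 262 control reads, then 611, 667 and 491 at the 3 times, and its ratio at 1 h was 2.56 (2.21 to 2.97). miR-221-5p, the less read partner of the growth-linked miR-221-3p, had 945, 1764, 2205 and 1125 reads in the same order, and its ratio at 1 h was 2.05 (1.89 to 2.22). These 3 arms were also past 2-fold. Counted by the exact mature sequence alone, miR-221-5p had a log2 ratio of -0.12, since most of its reads end past the mature end, as described with its 3' ends.

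Both remaining higher arms lay nearer to the limit. miR-27a-5p comes from a cluster with miR-23a and miR-24-2. Its control reads numbered 1682, followed by 2387, 1886 and 973 at the 3 times, with a ratio of 1.56 (1.46 to 1.66) at 1 h. The 24 h library thus lay below the control. miR-31a-3p had 369, 535, 544 and 510 reads, with a ratio of 1.59 (1.39 to 1.82). Scaled to hairpin reads rather than all reads, neither arm passed 1.5-fold.

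Among the lower arms, miR-181a-1-3p had the most reads. It is the less read arm of a hairpin whose other arm, miR-181a-5p, is abundant here. Its 1060 control reads compare with 563, 518 and 461 at the 3 times, and the 1 h ratio was 0.583 (0.525 to 0.646). miR-338-5p had 8.68 RPM in the control and 4.34 at 1 h, a ratio of 0.500 (0.359 to 0.690). miR-34c-3p, from a cluster that p53 activates, had 171 and 93 reads and a ratio of 0.597 (0.458 to 0.773). miR-421-3p had 182 and 102 reads with 0.615 (0.478 to 0.788), and miR-3559-3p had 215 and 124 with 0.633 (0.503 to 0.793). At 3 h and 24 h all 5 were below their control reads too. The most read tags of miR-338-5p and miR-421-3p ran past the RefSeq end. The exact mature sequence of each had 1 read in each library, too few to compare.

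**Figure D1:**
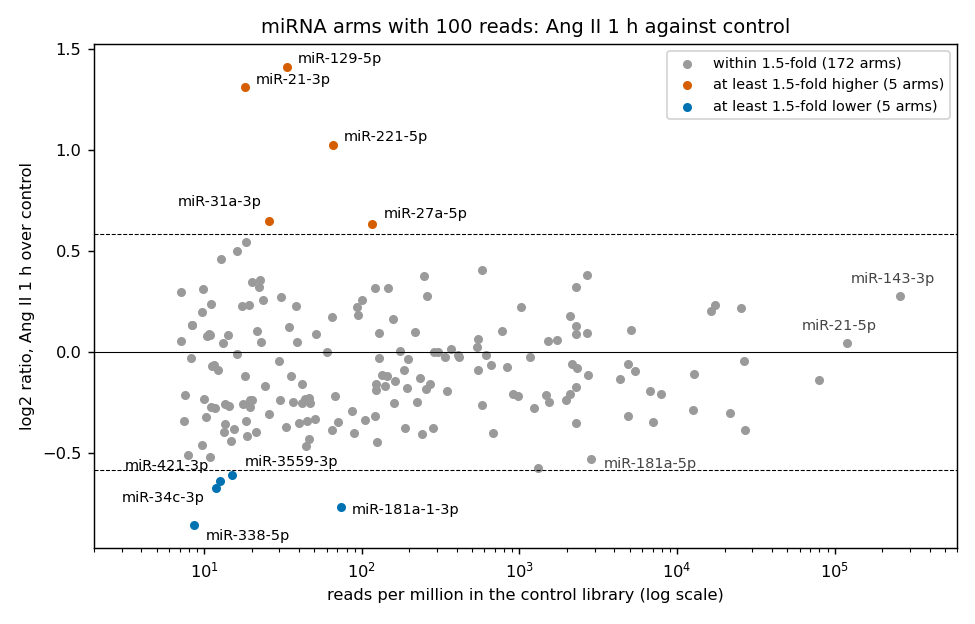
Each point is 1 of 182 miRNA arms, with its level in the control in RPM on a log axis and its log2 ratio of Ang II 1 h over control; dashed lines mark 1.5-fold. The 5 higher arms reach 1.41 (miR-129-5p), the 5 lower arms -0.86 (miR-338-5p), and the abundant miR-143-3p and miR-21-5p lie at 0.28 and 0.04.

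How many arms passed depended on the scale of the libraries. With all reads as the base 5 arms were higher and 5 lower, and with hairpin reads as the base 3 and 9. TMM factors gave 7 higher and 2 lower arms, as did median-of-ratios factors, so that 77.8% of the calls were higher. Those scalings moved the median of all arms by -0.08, 0.12 and 0.11. miR-129-5p, miR-21-3p and miR-221-5p were higher, and miR-181a-1-3p and miR-338-5p lower, under all 4 scalings. The arms that entered under one of them were miR-204-5p (log2 ratio 0.54 on all reads) and miR-450b-5p (0.50) above the control, and miR-181b-5p (-0.57), miR-181a-5p (-0.53), miR-466b-2-3p (-0.52) and miR-1839-3p (-0.51) below it. The next highest arms were miR-547-3p (0.46), miR-31a-5p (0.40) and miR-30e-5p (0.38), and the next lowest were miR-9a-5p (-0.46) and miR-497-5p (-0.46).

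The list of miRNAs linked to dividing smooth muscle had 9 arms with 100 reads, of which 3 were called higher and 0 lower, beside 2.75% of all arms each way. All 3 were the less read arms of their hairpins: miR-21-3p, miR-221-5p and miR-31a-3p. The more read partners had log2 ratios of 0.04 for miR-21-5p, -0.18 for miR-221-3p and 0.40 for miR-31a-5p. miR-222-3p, which shares its seed with miR-221-3p, stood at -0.25, with 2301 control reads and 1758 at 1 h. miR-146a-5p, induced by NF-kB, stood at 0.18, and miR-26a-5p at 0.22. The median of the list was 0.22, with 7 of 9 arms above the control (6 with hairpin reads as the base), against -0.11 over all arms.

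The contractile list had 5 arms with 100 reads and none was called. miR-143-3p was the most read arm of both libraries, with 3712152 reads in the control (257868 RPM) and 4099249 at 1 h (312457 RPM), a ratio of 1.21 (1.21 to 1.21). Its cluster neighbour miR-145-5p had 33053 and 32044 reads and a ratio of 1.06 (1.05 to 1.08). miR-21-5p, the next most read arm, had 1711262 and 1608882 reads. The other abundant arms had log2 ratios of -0.14 for let-7c-5p, -0.05 for let-7a-5p, -0.30 for miR-10a-5p, 0.23 for miR-24-3p, 0.20 for miR-30a-5p and -0.11 for miR-140-3p. The remaining contractile arms were miR-143-5p (log2 ratio -0.03), miR-1-3p (-0.16) and miR-145-3p (-0.26). The list's median was -0.03, with 2 of 5 arms above the control and 3 of 5 with TMM or median-of-ratios factors. Of the CREB list, whose genes are switched on early by cAMP and growth signals, only miR-132-3p had 100 reads. It had 512 control reads and 429, 1308 and 1268 at the 3 times, so the 1 h library did not share the level of the later ones. The list's arms with fewer reads were miR-212-3p with 29 and 32 reads, miR-212-5p with 6 and 16, and miR-132-5p with 10 and 14.

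The miR-181 family lay below the control in all 7 of its arms with 100 reads, and did so under all 4 scalings. The family is known for tuning signalling in immune and vascular cells. Its median log2 ratio was -0.42 against -0.11 over all arms, and 1 of the 7 was called. The 4 arms miR-181a-5p, miR-181b-5p, miR-181c-5p and miR-181d-5p share the seed ACAUUCA and summed to 4385 RPM in the control and 3041 at 1 h, a ratio of 0.693. miR-181a-5p went from 40716 reads to 25661 (ratio 0.692, 0.681 to 0.702), and stood at 21650 at 3 h and 38065 at 24 h. miR-181b-5p went from 18902 to 11565 (0.671, 0.656 to 0.687). The family comes from separate loci: miR-181c and miR-181d lie together on chromosome 19, and their 3 tested arms had log2 ratios from -0.42 to -0.25, while the Mir181a-1 and Mir181b1 hairpins lie on chromosome 13. Arms of both hairpins that make miR-181a-5p were below the control, miR-181a-1-3p at -0.77 and miR-181a-2-3p at -0.38.

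Other families lay within 1.5-fold. The arms of miR-99, miR-100 and miR-125 had a median of -0.29, with 1 of 9 above the control (3 of 9 with TMM factors). miR-125a-5p had a log2 ratio of -0.40 and miR-99b-5p one of -0.29. The miR-10 and miR-196 arms, which lie within the Hox gene clusters, had a median of -0.27, and 0 of 4 were above the control (1 of 4 with TMM factors). The mesenchymal miR-199a and miR-214 arms had -0.25, with 0 of 3 above under all 4 scalings. miR-29 arms, which target collagen genes, had a median of 0.20 with 3 of 4 above. miR-29b-3p stood at 0.32 and miR-29a-3p, from the same cluster, at -0.17. The listed miR-30 arms had a median of 0.10 with 3 of 5 above (4 of 5 with TMM factors). The 3 tested arms with the seed GUAAACA summed to a ratio of 1.17. No arm of miR-30b or miR-30d was listed, so these values do not cover the whole family. An abundant unnamed tag with the same seed letters, shown with the unnamed tags, had a ratio of 1.12 and was not in the sum. The let-7 arms split, with 6 of 13 above (8 of 13 with TMM factors) and a median of -0.03. Within it let-7b-5p went from 388665 reads to 271168 (ratio 0.766, 0.762 to 0.769) and let-7f-5p from 366503 to 387725 (1.16, 1.16 to 1.17). These share 1 seed, and their summed ratio with the 7 other arms of that seed was 0.939.

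Medians of the remaining lists were -0.15 for miR-17-92 and the related clusters, known to drive cell division (2 of 10 above, 5 of 10 with TMM factors), and -0.14 for miR-15/16, which restrains it (2 of 9 above, 4 of 9 with TMM factors). For miR-23/27/24 the median was -0.0017 with 4 of 9 above (7 of 9 with TMM factors), the NF-kB list had 0.11 with 3 of 4 above, and the p53 list -0.16 with 1 of 4 above (2 of 4 with TMM factors). Of these lists, miR-27a-5p and miR-34c-3p were the only arms called. The 4 arms with the seed AAAGUGC, miR-93-5p, miR-20a-5p, miR-106b-5p and miR-17-5p, summed to 3394 RPM in the control and 2888 at 1 h, a ratio of 0.851.

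The smooth muscle markers were abundant, and the marker arms of most other cell types that could be counted were rare. No arm of miR-150, miR-124 or miR-429 was among the RefSeq arms used, and of miR-200a and miR-200b only the 5p arms were. Reads of the missing arms could not be counted. In such bulk RNA, fewer cells of a type and less RNA per cell cannot be told apart. The smooth muscle arms of miR-143 and miR-145 summed to 261076 RPM in the control and 315708 at 1 h. The endothelial miR-126a arms summed to 145 and 137 RPM. Of the blood and immune list, 3 of 6 arms had reads, 14 in the control and 19 at 1 h, and the miR-223 arms had 0. Of the epithelial list, 3 of 7 had reads, 56 and 88 in all, and miR-200c-3p accounted for 55 and 80 of them. The neural list holds miR-129-5p, the highest of all tested arms. Its 8 arms summed to 124 RPM in the control and 164 at 1 h, but the other two with 100 reads lay below the control: miR-9a-5p went from 641 reads to 420 and miR-128-3p from 627 to 484. The part of neural cells in the miR-129-5p result was not tested. The striated muscle list had 1852 and 1499 reads, of which miR-1-3p, also expressed in smooth muscle, held 1761 and 1434. The liver and endocrine list had 330 and 390 reads, of which miR-7a-5p held 290 and 339.

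Both arms of a hairpin are read in the same library, so their share of each other does not depend on how libraries are scaled. A mature arm made by several hairpins was counted in full for each, such as miR-24-3p for Mir24-1 and Mir24-2. The same holds for miR-181a-5p and both Mir181a hairpins. Shares of such hairpins are not within 1 precursor. Of 128 hairpins with 100 reads over both arms in each library, 1 moved by at least 10 percentage points (0.781%). It was Mir221, where miR-221-5p made up 25.4% (24.0 to 26.8) of the reads in the control and 44.1% (42.6 to 45.7) at 1 h. The share was 45.7% at 3 h and 25.5% at 24 h. The next largest moves were those of Mir466b-2 (15.2% to 24.0% for miR-466b-5p) and Mir3559 (22.6% to 14.8% for miR-3559-3p). miR-21-3p remained under 0.1% of its hairpin, with 0.0153% in the control and 0.0380% at 1 h, because miR-21-5p held 1711262 and 1608882 reads.

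Among 49 hairpins with 100 reads on each arm, 29 had both arms on the same side of the control. In 6 of the 49 the ratios of the arms differed by more than 1.5-fold, and for miR-21 and miR-221 by more than 2-fold. For miR-21 the log2 ratios were 1.31 on the less read and 0.04 on the more read arm, and for miR-221 they were 1.02 and -0.18. The remaining 4 were miR-542-5p (-0.34 against 0.38), miR-3559-3p (-0.61 against 0.09), miR-125a-3p (0.23 against -0.40) and miR-34c-3p (-0.67 against -0.06). Across these hairpins, which share both libraries and are not independent replicates, the log2 ratios of the 2 arms had a Pearson r of 0.27 and a Spearman rho of 0.26. Arms made by several hairpins, such as miR-24-3p and miR-181a-5p, enter these counts and correlations more than once.

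**Figure D2:**
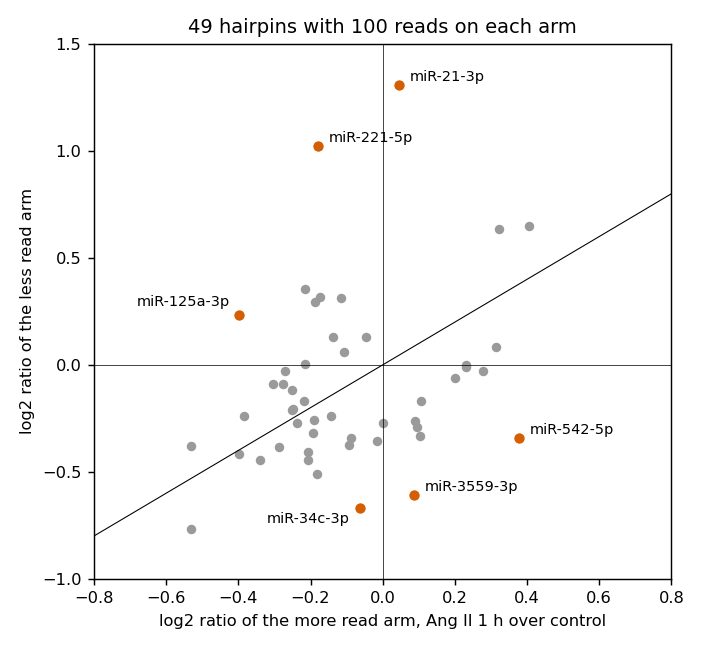
Each point is 1 of 49 hairpins with at least 100 reads on each arm, with the log2 ratio (Ang II 1 h over control) of its more read arm on the horizontal axis and of its less read arm on the vertical axis; the diagonal marks equal ratios. The 6 labelled hairpins lie more than 1.5-fold off the diagonal, miR-21-3p and miR-221-5p the farthest, at 1.31 and 1.02.

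The 3' ends showed which forms carried the reads of the higher arms and of miR-31a-5p, which was not called. For miR-27a-5p and miR-31a-3p the mature end dominated in both libraries, with 84.1% and 84.5% of the reads of miR-27a-5p and 78.9% and 80.0% of those of miR-31a-3p. The tags below are shown because they carried many of the added reads. Capitals mark bases past the RefSeq mature end, and in the hairpin line they mark the bases of the long tag.
miR-221-5p long tag: acctggcatacaatgtagatttcTGT
miR-31a-5p long tag: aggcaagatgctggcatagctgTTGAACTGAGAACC
Mir31 hairpin: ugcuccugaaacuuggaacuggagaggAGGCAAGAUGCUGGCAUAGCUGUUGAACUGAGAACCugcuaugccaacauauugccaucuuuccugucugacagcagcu
The miR-221-5p tag ran 3 bases past the mature end. Its 480 control reads compare with 1154, 1579 and 649 at the 3 times, a 1 h ratio of 2.64 (2.37 to 2.94). Reads of miR-221-5p that end at the mature end numbered only 50 and 41 (0.900, 0.580 to 1.39), while those running longer along the hairpin numbered 735 and 1504 (2.25, 2.05 to 2.46).

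The long miR-31a-5p tag held the whole loop of its hairpin. The 36-nt tag matched the Mir31 hairpin (chr5:108714849-108714954, minus strand) over all its bases, from base 28 to base 63. It runs 14 bases past the 22-nt mature arm and stops directly before the first base of miR-31a-3p, with a gap of 0. Reads of this tag numbered 626 in the control and 1974, 1599 and 312 at the 3 times. The ratio was 3.46 (3.16 to 3.79) at 1 h, the largest ratio of the tags with at least 1000 reads in one of both libraries. The 24 h library lay below the control. All miR-31a-5p tags of 30 nt or more numbered 1363 in the control and 4248 at 1 h, a ratio of 3.42 (3.22 to 3.64), whereas those under 30 nt numbered 6980 and 5817, a ratio of 0.914 (0.883 to 0.947). The arm as a whole (8343 and 10065 reads, ratio 1.32, 1.29 to 1.36) thus summed 2 forms on opposite sides of the control with all reads as the base. The form under 30 nt lay near the median of all arms (log2 ratio -0.11), so its distance from the control depends on the scaling. At 22 and 23 nt miR-31a-5p had 2453 and 2792 control reads, against 2101 and 2314 at 1 h.

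Tags of this kind were looked for in the hairpins with both a listed 5p arm and a listed 3p arm, counting 1 hairpin per 5p arm. Hairpins with a single listed arm were not searched. For 221 of these 5p arms, the arm with its whole loop would fit within the 42 nt of the longest tags. In the 4 libraries, 21 arms had any read that ended just before the 3p arm. miR-31a-5p had 732 such reads without Ang II and 2286, 1911 and 357 at the 3 times, a 1 h ratio of 3.43 (3.15 to 3.73). miR-143-5p had 598, 482, 466 and 954, with a ratio of 0.884 (0.783 to 0.999) at 1 h. miR-21-5p had 10 and 24, a ratio of 2.63 (1.21 to 6.17) from few reads. The other arms had at most 14 such reads in the control, and all arms without miR-31a-5p summed to 659 and 529.

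For miR-129-5p and miR-21-3p the exact mature form stood out. Reads of miR-129-5p that end at the RefSeq end numbered 390 in the control and 1112 at 1 h, a ratio of 3.13 (2.79 to 3.52). Reads with a tail of 1 to 3 bases not in the hairpin numbered 77 and 61, a ratio of 0.870 (0.610 to 1.23). The share at the exact end therefore went from 80.9% to 93.5%, with intervals that did not overlap, and the share with a tail that starts with A from 12.4% to 4.04% (60 and 48 reads). miR-21-3p had 137 and 396 reads at the exact end, a ratio of 3.17 (2.61 to 3.88), and 88 and 154 with a tail, a ratio of 1.92 (1.47 to 2.52). Its share at the exact end went from 52.3% (46.1 to 58.5) to 64.8% (60.9 to 68.6).

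**Figure D3:**
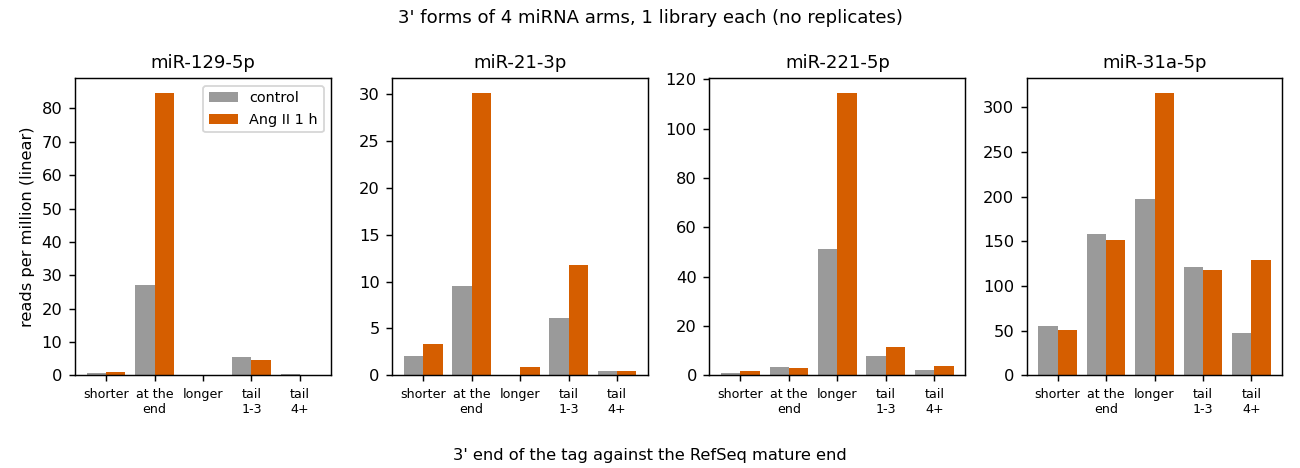
Bars give RPM (linear axis from 0, scaled separately per arm) of tags that end before, at or past the RefSeq mature end, or carry a tail of 1 to 3 or of 4 or more bases not in the hairpin, in the control (grey) and Ang II 1 h (orange) libraries, 1 library each. The 1 h bar is over 3 times the control bar at the mature end for miR-129-5p and miR-21-3p (ratios 3.13 and 3.17), while for miR-221-5p and miR-31a-5p the forms past the end are higher (2.25 and 1.60).

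The 3' forms were also compared over all arms as shares of 5 classes (shorter, at the end, longer, a tail of 1 to 3 bases, a tail of 4 or more). Of the arms with 100 reads in each library, 7 had a 3' form whose share moved by at least 10 percentage points (4.52%), and none of them had 1000 reads in each library. These classes split the long reads of miR-31a-5p between longer forms (34.0% to 41.3%) and tails of 4 or more bases (8.08% to 16.9%), so it is not among the 7, although its reads of 30 nt or more went from 16.3% to 42.2% of the arm. Beside miR-129-5p and miR-21-3p these were miR-3068-3p (longer forms from 22.5% to 38.9%), miR-24-1-5p (longer forms from 75.5% to 86.7%), miR-345-5p (shorter forms from 37.3% to 22.2%), miR-29c-3p (shorter forms from 47.4% to 60.7%) and miR-193a-3p (shorter forms from 21.4% to 10.1%). For the last 3 the intervals of the 2 libraries overlapped. Tails that start with U made up 14.8% of all arm reads in the control and 16.8% at 1 h. Without miR-143-3p, which carries most of them, tails that start with U made up 3.55% and 3.50%. Tails of any base made up 19.1% and 20.9% over all arms, and 9.36% and 9.27% without miR-143-3p.

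The 5' ends set the seeds. Of 174 arms, 3 had a start whose share moved by at least 10 percentage points (1.72%), and in each the intervals overlapped. Starts at the RefSeq 5' end made up 49.0% (39.0 to 59.1) of miR-345-5p in the control and 61.5% (52.1 to 70.4) at 1 h. Starts further in made up 15.8% and 27.4% of miR-3559-3p, and 16.3% and 26.5% of miR-503-3p. In 31 arms a start class had intervals that did not overlap. The largest of those moves was that of miR-365-5p, where starts further in made up 46.2% (43.4 to 49.0) in the control and 52.4% (49.2 to 55.7) at 1 h.

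Counting each distinct sequence on its own gave 4527 tags with 100 reads in one of both libraries. Of these, 217 were called higher (4.79%) and 776 lower (17.1%). The miRNA arm tags among them, 909 without near copies of other tags, held 17 higher and 29 lower tags. The higher ones came from few arms: 5 from miR-31a-5p, 3 from miR-143-3p, 2 each from miR-221-5p and miR-27a-5p, and 1 each from miR-129-5p, miR-146b-5p, miR-204-5p, miR-21-3p and miR-27b-5p. Of the lower ones, 6 came from let-7b-5p, 6 from miR-181a-5p and 5 from miR-181b-5p, arms that were not called as wholes. Some of these had shifted starts or altered last bases: a 21-nt let-7b-5p tag that lacks the first base went from 2328 reads to 1395 (ratio 0.658, 0.615 to 0.703).

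Unnamed tags numbered 3097, of which 190 were higher (6.13%) and 664 lower (21.4%). A near copy differs from a tag of the same length with at least 20 times its reads at 1 to 3 bases. Near copies made up 1597 of the unnamed tags, with 150 of the 190 higher and 341 of the 664 lower ones. Over near copies of unnamed and miRNA tags together, those with G-to-T changes alone spanned both directions. Copies with 1 such change summed to 313613 reads in the control and 250494 at 1 h (ratio 0.876). The 6 copies with 3 such changes summed to 331 and 1037 (3.44), with 5 called higher and 1 lower. A tag enters by reaching the read minimum in either library. For copies with so few reads, the ratio can reflect which library let them in. These ratios are therefore not set against each other. All 10 of the largest unnamed falls were near copies, 9 of them with an unread base at base 24. These 9 had at least 179 reads in the control and at most 1 at 1 h, and the part of sequencing quality in the other differences of single tags was not tested. Leaving out near copies and tags with an unread base left 1471 unnamed tags, 29 higher and 306 lower. Adapter sequence is among the unnamed tags. Of the 3097, 4 lay wholly within the adapters given in the labels, and all 4 were lower (558 control reads and 111 at 1 h). Tags that hold adapter bases beside others are not in that count. With TMM factors and all unnamed tags, 321 were higher and 406 lower. Higher tags then made up 44.2% of the calls against 22.2%.

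Of the 10 most read unnamed tags, 3 carry the letters TGATGA near their start, the most read one among them. In box C/D small nucleolar RNAs, which guide the methylation of ribosomal RNA, these are the letters of the C box close to the 5' end, and CTGA those of the D box close to the 3' end. No transcript reference was used here, so the tags are given by sequence alone, with TGATGA in capitals. Tags 1 to 3 are those 3, and the other two show further starts.
tag 1: agcctgTGATGAattcaatttctgac
tag 2: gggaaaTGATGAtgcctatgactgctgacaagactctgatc
tag 3: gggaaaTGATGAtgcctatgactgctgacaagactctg
tag 4: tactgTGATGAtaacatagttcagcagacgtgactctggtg
tag 5: tggagaTGATGAactgactcaacctgacc
Tag 1, of 26 nt, had 214818 control reads and 136415, 155829 and 107766 at the 3 times, with a ratio of 0.697 (0.692 to 0.702) at 1 h. Tag 2, of 41 nt, had 69457, 29255, 45121 and 36463 reads, a ratio of 0.462 (0.456 to 0.469). Tag 3 is the same start cut at 38 nt and had 65518, 31277, 44724 and 34206 reads, a ratio of 0.524 (0.517 to 0.531). For all 3 the control was the highest of the 4 libraries. Tag 4, of 41 nt, had 2054, 860, 1304 and 2278 reads (0.459, 0.424 to 0.498, at 1 h), so its 24 h library lay above the control. Tag 5, of 29 nt, was on the other side, with 1977 and 2200 reads (1.22, 1.15 to 1.30).

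The tags with these letters had a lower median than the other unnamed tags over all lengths and at 36 to 42 nt, but not at 25 to 29 nt. The letters were searched on the read strand alone, since a tag is 1 strand of RNA, and were found in 175 of the 1471 unnamed tags that are no near copies (11.9%), in 0 of 909 miRNA arm tags and in 6.34% of all 4527 tags. In 165 of the 175 they lay within the first 12 bases, and 130 also held CTGA. None of the 175 was called higher and 62 were called lower (35.4%), against 29 higher and 244 lower (18.8%) of the 1296 without the letters. Their median log2 ratio was -0.45, against -0.22 without the letters. Tags of 1 transcript are not independent: the 175 tags had 89 distinct first 16 bases, and the starts of tags 1 and 2 held 79.5% of their reads. Summed, they had 32376 RPM in the control and 20848 at 1 h (ratio 0.644), and 0.735 without those 2 starts. At 36 to 42 nt, 52 of the 109 tags with the letters were lower (47.7%, median -0.58), against 72 of the 256 without them (28.1%, median -0.31). At 25 to 29 nt, 2 of the 34 with the letters were lower (5.88%, median -0.08), against 19 of the 212 without them (8.96%, median -0.18).

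**Figure D4:**
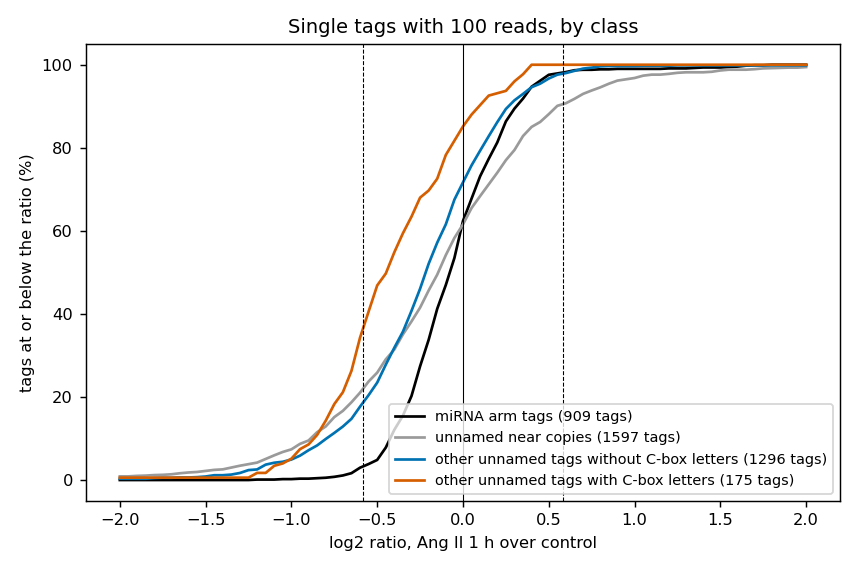
Each line gives, for 1 class of single tags with at least 100 reads, the share of tags (vertical axis, percent) at or below a log2 ratio of Ang II 1 h over control (horizontal axis); dashed lines mark 1.5-fold. The 175 unnamed tags with the C-box letters TGATGA have a median of -0.45, and the 909 miRNA arm tags have a median of -0.07.

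Other abundant unnamed tags went both ways, which the next tags show, again by sequence alone.
tag 6: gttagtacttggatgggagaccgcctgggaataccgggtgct
tag 7: ggaataccgggtgctgtaggcttt
tag 8: cgactcttagcggtggatcactc
tag 9: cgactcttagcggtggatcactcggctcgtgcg
tag 10: ccccgggggccgggcggcg
tag 11: tgtaaacatccccgactggaagc
Tag 6, of 42 nt, had 47916 reads in the control and 51479 at 1 h (ratio 1.18, 1.16 to 1.19), while tag 7, whose first bases are the last bases of tag 6, had 1638 and 659 (0.441, 0.403 to 0.484). Tags 8 and 9 share a start and differ in length. The 23-nt form had 38573 and 27017 reads (0.769, 0.757 to 0.781) and the 33-nt form 27838 and 25279 (0.996, 0.980 to 1.01). Tag 10, of 19 nt and made of C and G alone, had 32218 control reads and 18827, 9315 and 23421 at the 3 times, a 1 h ratio of 0.641 (0.630 to 0.653). Tag 11 shares bases 2 to 8 with miR-30a-5p, miR-30c-5p, miR-30e-5p and miR-384-5p, and had 92284 and 93949 reads (1.12, 1.11 to 1.13). The log2 ratios of those arms were 0.20, 0.10, 0.38 and, for miR-384-5p with 93 and 84 reads, -0.01. The listed hairpins gave no arm of miR-30b or miR-30d. Whether tag 11 is a miRNA missing from the list was not tested.

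Unnamed tags that were higher and not near copies numbered 29, and most had few reads. Tags 12 and 13 are among the 10 largest rises of unnamed tags, and tag 14 was chosen after its values were seen.
tag 12: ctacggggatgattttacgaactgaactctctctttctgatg
tag 13: taagtgcttccatgttttagtag
tag 14: tgtaatcattgtttcaagacgggactgatg
Tag 12, of 42 nt, had 0 control reads and 147, 34 and 0 at the 3 times. A count of 0 in the control allows up to 3 reads, or 0.208 RPM. Tag 13, of 23 nt, had 10, 126, 39 and 0 reads, and a ratio of 13.8 (7.27 to 29.5) at 1 h, and both tags were at 0 in the 24 h library. Tag 14, of 30 nt, had 193 control reads and 375, 291 and 250 at the 3 times, a 1 h ratio of 2.13 (1.79 to 2.55). One further 16-nt start with TGATGA, chosen here after its values were seen, had 1 read in the control and 192 at 1 h over all its tags, with 27 at 3 h and 3 at 24 h.

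Reads of 20 to 24 nt made up a larger share at 1 h, while unnamed reads made up a smaller one in every length class. At 20 to 24 nt the unnamed reads went from 11.9% to 10.9% (ratio 0.917) and the hairpin reads from 71.0% to 74.8% (1.05). Hairpin reads made up a larger share in every length class. Over all lengths they numbered 10470090 in the control and 10055995 at 1 h, of which miR-143-3p held 3712152 and 4099249. Without miR-143-3p the other hairpin reads together made up a smaller share of the library at 1 h. By single length, unnamed reads of 17, 20 and 34 nt were not lower (ratios 1.014, 1.004 and 1.004). Reads of 20 to 24 nt made up 83.0% of the control and 85.7% at 1 h, and those of 20 nt alone, the length with the largest difference, 17.6% and 20.3%. Reads of 18 to 19 nt went from 2.65% to 2.38% (ratio 0.899), and the unnamed ones among them from 1.42% to 1.09% (0.766). Reads of 25 to 29 nt went from 4.49% to 3.56%, a ratio of 0.791 (0.788 to 0.794), and those of 36 to 42 nt from 4.83% to 3.57%, a ratio of 0.740 (0.737 to 0.742). Among single lengths over 24 nt, 26 nt (2.31% and 1.66%), 38 nt (0.955% and 0.590%) and 41 nt (1.03% and 0.576%) differed most in percentage points. These are the lengths of tags 1, 3 and 2. Unnamed reads with TGATGA of 36 to 42 nt made up 1.98% of the control and 1.08% at 1 h. When each distinct tag was counted once, the share of tags of 25 to 29 nt had a ratio of 1.01 and that of 36 to 42 nt one of 0.967, so the number of distinct tags did not show the shift. Reads of 36 to 42 nt that match a hairpin went the other way, from 0.0327% to 0.0562% (ratio 1.72). At 36 nt alone they numbered 1263 and 3672, of which the miR-31a-5p reads were 1097 and 3474.

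**Figure D5:**
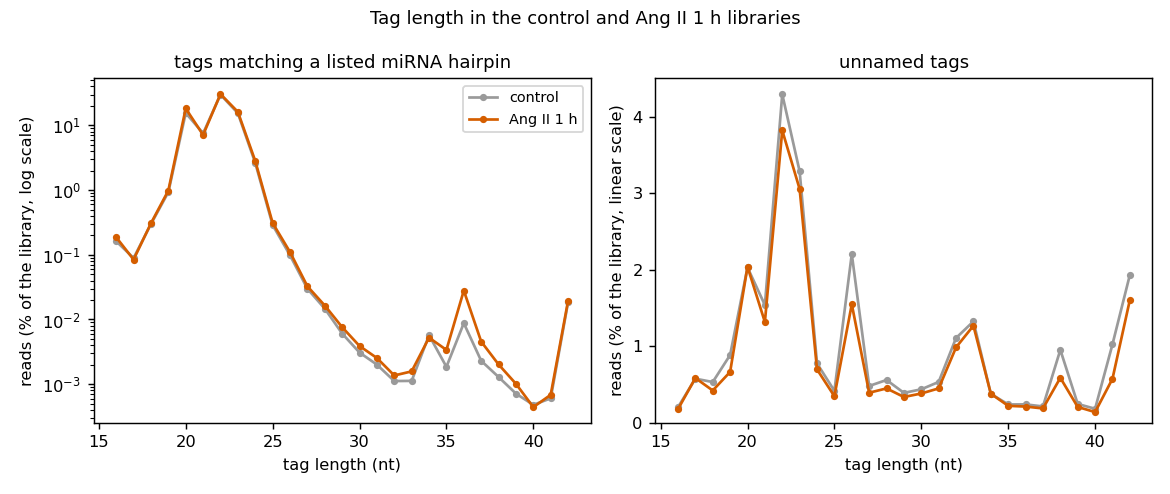
Lines give the share of each library's reads (percent) at each tag length from 16 to 42 nt, for tags that match a listed miRNA hairpin (left, log axis) and for unnamed tags (right, linear axis from 0), in the control (grey) and Ang II 1 h (orange). The libraries separate at 36 nt on the left (1263 and 3672 reads) and at 26, 38 and 41 nt on the right, where the control is higher.

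Some long tags joined 2 mature sequences end to end. Counting tags in which an arm is followed by the first 12 bases of another gave 1598 control reads and 1112, 1973 and 1947 at the 3 times, a 1 h ratio of 0.764 (0.707 to 0.825). The pair miR-22-3p followed by miR-21-5p held 1348, 911, 1664 and 1591 of them. Both genes lie on chromosome 10, far apart, and the 1 h library was the lowest of the 4.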

How the data were processed

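Small RNA in 4 libraries was sequenced on an Illumina instrument, per the labels' protocols. The values are read counts per distinct sequence tag as the authors deposited them, not normalized. Tags span 16 to 42 nt. Novoalign and the rn4 build appear in the submitters' processing notes with no role given. Trimming and filtering: not given in the sources used here. The row named QC, 7.07% of the control and 5.66% of the 1 h reads, names no sequence and was left out, and counts were scaled to 1000000 remaining reads (RPM). Columns that match no sample numbered 0.

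Tags were matched by their first 18 nt to the 419 RefSeq rat hairpins (GRCr8), within 3 nt of a mature start, with ties shared equally; 51 of 693 mature names have no hairpin in that table. Ratios carry exact conditional binomial intervals and shares exact Clopper-Pearson intervals, both at 95%. A count of 0 allows up to 3 reads. A feature was called at 1.5-fold with a pseudocount of 1 RPM and at least 100 reads in the higher library, and a share moved at 10 percentage points with 100 reads in each. Named arms came from the 10 largest rises, the 10 largest falls, the 10 most read and the contractile, synthetic and CREB lists. Named tags, variants and arm shares came from the 10 largest rises, falls or moves and the 10 most read unnamed tags. Family and marker arms and tags 5 and 14 were named after their values were seen. The members and lists were chosen with earlier results of these data known. Alternatives were other scalings (TMM and median of ratios, edgeR 4.0.16 in R 4.3.3 and numpy 2.4.6), pseudocounts, minimums, fold limits and matching rules. Leaving out near copies and unread bases was chosen after seeing the data.

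On simulated counts for 182 arms the calls recovered 10 of 10 arms at 0.5-fold, 3 of 10 at 1.5-fold, 9 of 10 at 2-fold and 10 of 10 at 3-fold, with 0 of 142 unchanged arms called. For 4527 tags they recovered 46, 24, 49 and 50 of 50, with 0 of 4327 unchanged tags called. The simulated counts were Poisson draws with counting error alone and no variation between cultures or libraries. With at least 100 reads, unchanged features could hardly pass 1.5-fold in that setting. The simulation therefore gives no rate of false calls for the real libraries. Matching placed 3511 of 3514 simulated tags. Python 3.11.15, pandas 2.3.3 and scipy 1.17.1 were used.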

Additional observations from a re-analysis of the deposited data

How the results depend on the processing

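Most calls of arms at 1 h lie near a limit, while miR-129-5p, miR-21-3p and miR-221-5p also passed a 2-fold limit. Higher arms numbered 5 and were 3 scaled to hairpin reads, 3 with a minimum of 1000 reads and 3 at a 2-fold limit. Lower arms numbered 5 and were 9 scaled to hairpin reads, 2 with TMM and 2 with median-of-ratios factors, 1 with a pseudocount of 10 RPM, 1 with a minimum of 1000 reads, 0 at a 2-fold limit and 2 by the mature sequence alone. That last count reversed miR-221-5p (log2 ratio -0.12), miR-338-5p (0.0091) and miR-421-3p (0.0091), since reads with other ends no longer count. Each of the last pair rests on 1 read in each library. Single tags, 217 higher and 776 lower, gave 359 and 517 with TMM factors, 366 and 507 with median-of-ratios factors, 89 and 257 with a pseudocount of 10 RPM, 422 and 1477 with a minimum of 50 reads, 21 and 70 with one of 1000, 70 and 231 at a 2-fold limit, and 47 and 335 without near copies and unread bases. Unnamed tags, 190 and 664, gave in the same order 321 and 406, 325 and 402, 79 and 224, 372 and 1287, 15 and 56, 60 and 208, and 29 and 306. With 1000 reads in each library 0 arms moved at either end; at 5 percentage points 15 moved at the 5' end, 40 at the 3' end and 7 hairpins between arms. Length ratios from the shortest to the longest class were 1.05, 0.893, 0.984, 1.01, 1.09 and 0.967 with each distinct tag counted once. Without tags read once, classes from 18 nt up had 0.905, 1.03, 0.777, 0.913 and 0.717, and without unread or adapter tags those from 20 nt up had 1.03, 0.800, 0.928 and 0.749. Except where the way of counting shows it, the cause was not tested. No paired analysis was possible because each group has 1 library, so no replicate could be left out either.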
